A study of Rattus norvegicus with 9 samples.

Results

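The calcium-binding and peptide markers of interneurons were followed in cultured neural stem cells (NSCs) through 10 named genes of the 23953 genes in the count table. They were the calcium-binding protein genes Calb1, Calb2, Pvalb, Necab1 and Necab2, the neuropeptide genes Sst, Npy, Vip and Cck, and the reelin gene Reln. Members were taken by symbol, all 10 had a row in the table, and all 10 passed the filter on low counts in each comparison. The genes were selected on the counts of these same 9 libraries, so their levels and differences are given as a description and carry no test of their own.

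The NSCs were labelled as rat cells from spinal cord, and the paper's methods describe isolation from newborn rats. All 3 groups were kept in the same differentiation medium, which held FGF, bFGF, serum, B-27 and N-2. The Con group received this medium alone, the Exo group also received exosomes of bone marrow mesenchymal stem cells (BMSCs), and the pLV-Exo-Wnt5a group received exosomes of BMSCs that overexpressed Wnt5a from a lentiviral vector. By the methods, the donor BMSCs of the Exo group carried the same kind of vector without an insert, so both exosome groups came from transduced donors. Each group had 3 RNA sequencing libraries, and no label says that they came from separate cultures, so p-values measure the spread between these libraries, which may be technical. Wnt5a was overexpressed in the donor cells and not in the sequenced NSCs, so its count here does not check the labels.

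Interneurons are neurons that signal to cells nearby. Those of the cerebral cortex are mostly inhibitory and release GABA, whereas those of the spinal cord include both inhibitory cells, which release GABA or glycine, and excitatory cells, which release glutamate. Calcium buffers and peptides are used to tell their types apart. Parvalbumin, somatostatin and vasoactive intestinal peptide mark largely separate interneuron classes of the cerebral cortex, whereas calbindin and calretinin are shared among several classes and are also found in dorsal horn neurons of the spinal cord, many of them excitatory. Many of these genes are made outside interneurons too, for example Cck in excitatory cortical neurons and Reln in Cajal-Retzius cells and cerebellar granule cells.

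Total counts lay between 32765138 and 40427647 per library, so 3 counts, the most that an observed 0 allows, stood for 0.0742 to 0.0916 CPM, the count scaled to a common library size with TMM factors over the 9 libraries. This limit covers counting error only. Within the Con group, replicate 1 stood apart. Its chi-square divided by the degrees of freedom was 37.6 and 52.3 against replicates 2 and 3, compared with 7.69 to 23.7 for the other pairs within a group, so no pair differed by sampling noise alone. Levels are given as CPM and are not compared between genes, since transcript lengths were not used here. Groups were compared in pairs by the quasi-likelihood method of edgeR, with p-values adjusted after Benjamini and Hochberg (Q), and a log2FC is given with its standard error (SE). The comparisons share libraries: the Exo group enters the first and the second, the Con group enters the first and the third, and the pLV-Exo-Wnt5a group enters the second and the third.

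Calb1 encodes calbindin, a cytosolic calcium buffer. Its level was 8.46, 7.91 and 10.7 CPM in Con replicates 1, 2 and 3, it was 17.8, 15.3 and 17.1 CPM in the Exo replicates, and it was 16.6, 14.1 and 9.98 CPM in the pLV-Exo-Wnt5a replicates. Every Exo library was above every Con library, while the pLV-Exo-Wnt5a libraries ran from the Con level up to the Exo level. The mean was 9.04 ± 1.50 CPM in Con, 16.7 ± 1.29 CPM in Exo and 13.6 ± 3.35 CPM in pLV-Exo-Wnt5a (SD, n = 3 each). The Exo mean was thus 1.85 times the Con mean, with a log2FC of 0.88 (SE 0.15), which lay above 98.0% of the log2FC values of all genes tested in that comparison. Against Con, the pLV-Exo-Wnt5a group gave a log2FC of 0.58 (SE 0.20), and against Exo it gave -0.29 (SE 0.16). The value against Exo depended on single libraries, with -0.12 without pLV-Exo-Wnt5a replicate 3 and -0.46 without replicate 1. Without Con replicate 1, the log2FC of Calb1 between Exo and Con was 0.84.

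Necab1 encodes a neuronal protein with a calcium-binding EF-hand domain and is used as a marker of cortical and spinal neuron types. It was at 3.79, 3.62 and 4.84 CPM in the Con libraries, at 9.69, 9.11 and 8.49 CPM in the Exo libraries, and at 8.13, 5.22 and 3.87 CPM in the pLV-Exo-Wnt5a libraries. As for Calb1, the Exo libraries were all above the Con libraries, and pLV-Exo-Wnt5a replicate 3 lay within the Con range. For Necab1 the pLV-Exo-Wnt5a libraries were also all below the Exo libraries. The ratio of the Exo to the Con mean was 2.23 (log2FC 1.15, SE 0.17), the highest of the 10 genes and above 99.3% of all genes tested. The log2FC was -0.65 (SE 0.22) for pLV-Exo-Wnt5a against Exo and 0.49 (SE 0.27) against Con. These values depended on single pLV-Exo-Wnt5a libraries: against Exo, the log2FC was -0.99 without replicate 1 and -0.44 without replicate 3, and against Con it was 0.15 without replicate 1. Without Con replicate 1, the log2FC of Necab1 between Exo and Con was 1.10.

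**Figure D1:**
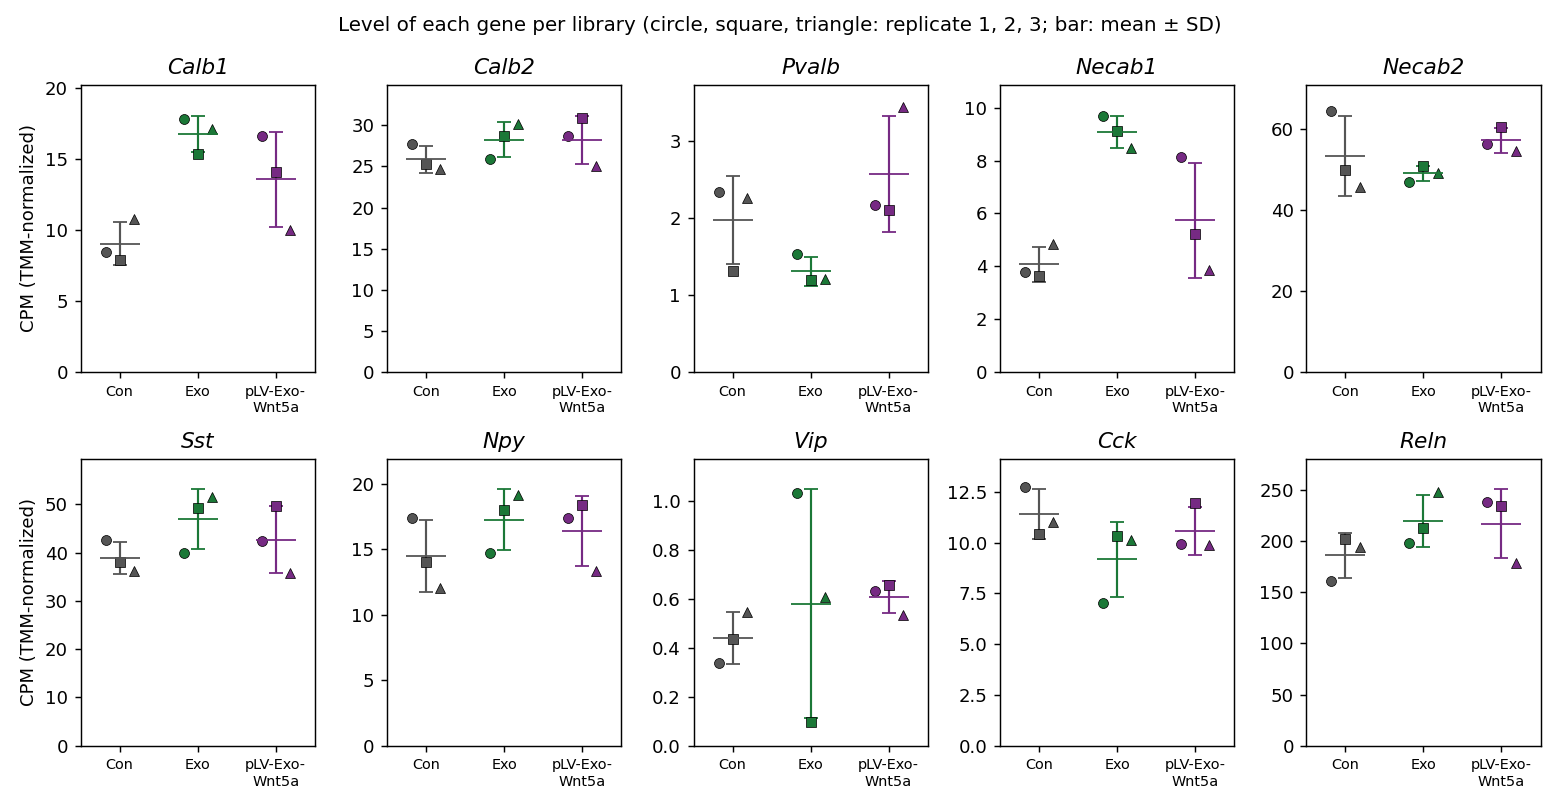
Level of each of the 10 genes (y axis, TMM-normalized CPM on a linear scale from 0) in each group; markers are the 3 libraries of a group and bars the mean ± SD. Calb1 and Necab1 were higher in every Exo library than in every Con library, whereas Calb2, Sst, Npy and Reln overlapped between all groups.

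Calb2 encodes calretinin, a calcium buffer related to calbindin. It was at 27.7, 25.2 and 24.6 CPM in Con, at 25.9, 28.7 and 30.2 CPM in Exo, and at 28.6, 30.9 and 25.1 CPM in pLV-Exo-Wnt5a. The groups overlapped, and the log2FC of Calb2 was 0.12 both for Exo against Con (SE 0.11) and for pLV-Exo-Wnt5a against Con (SE 0.12). With 1 library left out, these ran from 0.08 to 0.19 and from 0.06 to 0.20. Between pLV-Exo-Wnt5a and Exo, the log2FC of Calb2 was 0.01 (SE 0.10), and it ran from -0.06 to 0.08 with 1 library left out, negative without Exo replicate 1 or without pLV-Exo-Wnt5a replicate 2.

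Pvalb encodes parvalbumin, the calcium buffer of fast-spiking interneurons. It was low, at 2.34, 1.31 and 2.25 CPM in Con, at 1.52, 1.19 and 1.21 CPM in Exo, and at 2.17, 2.11 and 3.44 CPM in pLV-Exo-Wnt5a, which stood for between 48 and 142 counts per library. The pLV-Exo-Wnt5a libraries were all above the Exo libraries, and the Con libraries overlapped both. The pLV-Exo-Wnt5a mean was 1.97 times the Exo mean (log2FC 0.99, SE 0.28), and without pLV-Exo-Wnt5a replicate 3, the highest library, the log2FC was 0.71. The log2FC was -0.59 (SE 0.31) for Exo against Con, with -0.45 without Con replicate 1 and -0.82 without Con replicate 2, and 0.38 (SE 0.31) for pLV-Exo-Wnt5a against Con. The value against Con for pLV-Exo-Wnt5a was 0.12 without pLV-Exo-Wnt5a replicate 3 and 0.16 without Con replicate 2. Pvalb thus had the opposite sign to Calb1 and Necab1 both for Exo against Con and for pLV-Exo-Wnt5a against Exo.

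Necab2, the EF-hand relative of Necab1, was at 64.5, 49.9 and 45.6 CPM in Con, at 47.0, 50.8 and 49.2 CPM in Exo, and at 56.3, 60.6 and 54.5 CPM in pLV-Exo-Wnt5a. It did not share the pattern of Necab1: its pLV-Exo-Wnt5a libraries were all above its Exo libraries, by a log2FC of 0.23 (SE 0.07). The log2FC between Exo and Con was -0.13 (SE 0.13) and was 0.03 without Con replicate 1, which held the highest level of the 9 libraries. Against Con, the log2FC of pLV-Exo-Wnt5a was 0.09 (SE 0.13), with -0.02 without Con replicate 3 and 0.26 without Con replicate 1.

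Sst encodes somatostatin and Npy encodes neuropeptide Y, peptides that are often made by the same cortical interneurons. Their start regions are shown because their levels moved together across the 9 libraries, with a Pearson r of 0.928 of log2 CPM. Both are RefSeq sequences of the rat build GRCr8, read 5′ to 3′ on the + strand, with 250 bases before the annotated start and 30 bases from it. The window is chr11:90461296-90461575 for Sst and chr4:80211861-80212140 for Npy, and capitals mark the cyclic AMP response element TGACGTCA.
Sst: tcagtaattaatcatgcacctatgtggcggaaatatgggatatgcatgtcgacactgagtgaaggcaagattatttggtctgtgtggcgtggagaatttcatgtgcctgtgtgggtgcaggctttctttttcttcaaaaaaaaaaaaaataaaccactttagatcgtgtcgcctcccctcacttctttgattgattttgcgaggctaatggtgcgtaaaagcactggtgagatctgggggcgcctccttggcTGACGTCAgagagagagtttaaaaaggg
Npy: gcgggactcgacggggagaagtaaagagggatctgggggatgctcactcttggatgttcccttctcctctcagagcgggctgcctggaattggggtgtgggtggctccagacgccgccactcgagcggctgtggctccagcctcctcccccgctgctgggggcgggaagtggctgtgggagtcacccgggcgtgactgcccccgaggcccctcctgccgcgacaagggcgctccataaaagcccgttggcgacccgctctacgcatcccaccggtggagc
The Sst window held the 8-base element TGACGTCA, which is its own reverse complement and holds the shorter core TGACG on both strands, and the Npy window held neither on either strand. With the annotated start as base 1, the element of Sst lay at bases 3 to 10, after that start and not in the 250 bases before it. The start used in these cells was not measured, so this position holds for the annotation only and does not show that the element is transcribed. Among 33469 promoters of the same length in that annotation, 1.78% held TGACGTCA and 20.2% held TGACG on at least 1 strand. The exact sequence TATAAA, searched on both strands, was in neither window, against 13.7% of all promoters. Variants of it were not searched, so a similar box is not excluded. Matches are letters in a window and do not show that a factor binds there. An entry was given for 6 of the 10 genes, and no entry was given for Calb1, Calb2, Necab1 and Cck.

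Sst was at 42.5, 38.1 and 36.2 CPM in Con, at 39.9, 49.2 and 51.6 CPM in Exo, and at 42.4, 49.7 and 35.9 CPM in pLV-Exo-Wnt5a. The groups overlapped, with the lowest and the highest library of the series in the pLV-Exo-Wnt5a and the Exo group. The log2FC was 0.26 (SE 0.12) for Exo against Con, -0.13 (SE 0.13) for pLV-Exo-Wnt5a against Exo and 0.12 (SE 0.13) for pLV-Exo-Wnt5a against Con. With 1 library left out, the log2FC of Sst ran from 0.19 to 0.37, from -0.25 to -0.02 and from 0.008 to 0.24, with the value nearest 0 without pLV-Exo-Wnt5a replicate 3 in the second comparison and without pLV-Exo-Wnt5a replicate 2 in the third.

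Npy was at 17.4, 14.05 and 12.02 CPM in Con, at 14.7, 17.99 and 19.1 CPM in Exo, and at 17.4, 18.4 and 13.4 CPM in pLV-Exo-Wnt5a. As for Sst, the libraries of the 3 groups overlapped and Exo replicate 3 was the highest. The log2FC of Npy was 0.24 (SE 0.17), -0.07 (SE 0.14) and 0.17 (SE 0.18) in the same order of comparisons. With 1 library left out it ran from 0.12 to 0.40, from -0.18 to 0.05 and from 0.04 to 0.33, and the second turned positive without Exo replicate 3 or without pLV-Exo-Wnt5a replicate 3.

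Cck encodes cholecystokinin. It was at 12.8, 10.4 and 11.05 CPM in Con, at 7.05, 10.3 and 10.1 CPM in Exo, and at 9.92, 11.9 and 9.91 CPM in pLV-Exo-Wnt5a. The Exo libraries were all below the Con libraries, but the nearest pair, Exo replicate 2 and Con replicate 2, differed by less than the SD of either group. Without TMM factors, Exo replicate 2 (10.50 CPM) was above Con replicate 2 (10.42 CPM), so the groups overlapped. The log2FC of Cck was -0.32 (SE 0.18) for Exo against Con and was -0.16 without Exo replicate 1. It was 0.22 (SE 0.16) for pLV-Exo-Wnt5a against Exo and -0.12 (SE 0.16) against Con. The former was 0.05 without Exo replicate 1, and the latter was -0.02 without Con replicate 1.

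Vip, which encodes vasoactive intestinal peptide, was measured by only 4 to 40 counts per library. It was at 0.337, 0.437 and 0.548 CPM in Con, at 1.03, 0.0990 and 0.606 CPM in Exo, and at 0.631, 0.656 and 0.533 CPM in pLV-Exo-Wnt5a. The Exo group held both the highest and the lowest library of the series. Its log2FC between Exo and Con, 0.38 (SE 0.66), was -0.32 without Exo replicate 1 and 0.88 without Exo replicate 2, so the direction was set by single libraries. Against Exo, the pLV-Exo-Wnt5a group had a log2FC of 0.09 (SE 0.62), and against Con 0.46 (SE 0.43). The value of Vip against Exo was 0.79 without Exo replicate 1 and -0.42 without Exo replicate 2. With 1 library left out, the value of Vip for pLV-Exo-Wnt5a against Con ran from 0.30 to 0.63.

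Reln encodes reelin, a secreted glycoprotein that guides the placing of migrating neurons. Reln was at 161, 202 and 195 CPM in Con, at 198, 213 and 248 CPM in Exo, and at 239, 234 and 179 CPM in pLV-Exo-Wnt5a. The groups overlapped, with the lowest library in Con and the highest in Exo. The log2FC was 0.23 (SE 0.11) for Exo against Con, -0.01 (SE 0.11) for pLV-Exo-Wnt5a against Exo and 0.22 (SE 0.12) for pLV-Exo-Wnt5a against Con. Leaving out 1 library gave 0.14 to 0.31, -0.08 to 0.11 and 0.13 to 0.34, and the second was positive when replicate 3 of Exo or of pLV-Exo-Wnt5a was absent.

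Of the 10 genes, none had Q under 0.05 by edgeR between Exo and Con, beside 0.00664% of all genes tested. None had Q under 0.05 between pLV-Exo-Wnt5a and Exo, beside 0.436%, or between pLV-Exo-Wnt5a and Con, beside 0.0862%. The lowest Q among the 10 genes was 0.0979, 0.179 and 0.509 in these comparisons. The number with an unadjusted p under 0.05 was 2, 3 and 1, beside 14.9%, 12% and 8.35% of all genes tested. A differentially expressed gene (DEG), by the thresholds of the study's methods, also needs a change of more than 2-fold in either direction. The share of DEGs among all genes tested by edgeR was 0.00664%, 0.159% and 0.0663%. The study itself used DESeq2, so these are not its DEGs. DESeq2 on the same libraries gave Q under 0.05 to 2 of the 10 genes between Exo and Con, Calb1 and Necab1, of which 1, Necab1, was a DEG. Among all genes with a Q by DESeq2 there, 1.65% had Q under 0.05 and 0.25% were DEGs. In the other comparisons DESeq2 gave Q under 0.05 to none of the 10, beside 2.66% of all genes for pLV-Exo-Wnt5a against Exo and 0.478% against Con.

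A looser threshold asked for an absolute log2FC above 0.58 with an unadjusted p under 0.05. By it, Calb1 and Necab1 were higher in Exo than in Con and none of the 10 was lower, where 3.56% of all genes tested were called higher and 0.909% lower. Pvalb was higher and Necab1 lower in pLV-Exo-Wnt5a than in Exo, where 1.51% were called higher and 1.98% lower. Calb1 was higher in pLV-Exo-Wnt5a than in Con, where 1.46% were called higher and 0.696% lower. That call was at the limit and was lost without Con replicate 1 or 2, without pLV-Exo-Wnt5a replicate 1 or 2, and with the replicate block, with a log2FC of 0.41 to 0.56 in those fits. The call for Necab1 between pLV-Exo-Wnt5a and Exo was lost without pLV-Exo-Wnt5a replicate 3 (log2FC -0.44). Calls were also gained: Pvalb was lower in Exo than in Con without Con replicate 2, and Necab1 was higher in pLV-Exo-Wnt5a than in Con without Con replicate 3 (log2FC 0.62) or without pLV-Exo-Wnt5a replicate 3 (log2FC 0.71). Because the 10 genes were selected on these counts, nothing is read from the counts.

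The calls for Calb1 and Necab1 between Exo and Con depended on the filter and 1 library. The DESeq2 fit did not use the edgeR filter on low counts either, so its calls do not show a dependence on the method alone. With no filter on low counts, edgeR gave Calb1 a Q of 0.00301 and Necab1 a Q of 0.00170, and Necab1 was a DEG, beside 1.93% of all genes with Q under 0.05 and 0.217% DEGs in that fit. When 1 library was left out and the filter kept, both had Q under 0.05 only without Con replicate 3. In that fit, which left out the highest of the Con libraries for both genes, both were DEGs (Calb1 log2FC 1.02 and Necab1 log2FC 1.28), beside 138 DEGs or 0.893% of all genes tested. Without Con replicate 1 or 2, or without any 1 Exo library, neither was a DEG.

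Libraries of the compared groups did not overlap for 3 of the 10 genes between Exo and Con (Calb1, Necab1 and Cck), against 23.3% of all genes tested. For Cck, the libraries overlapped without TMM factors. Libraries of the compared groups did not overlap for 3 genes between pLV-Exo-Wnt5a and Exo (Pvalb, Necab1 and Necab2), against 16.4%. They overlapped for all 10 between pLV-Exo-Wnt5a and Con, where 17.1% of all genes did not overlap. The median log2FC of the 10 genes was 0.24, 0.002 and 0.19 in the 3 comparisons, and that of all genes tested was 0.002, 0.005 and 0.004.

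**Figure D2:**
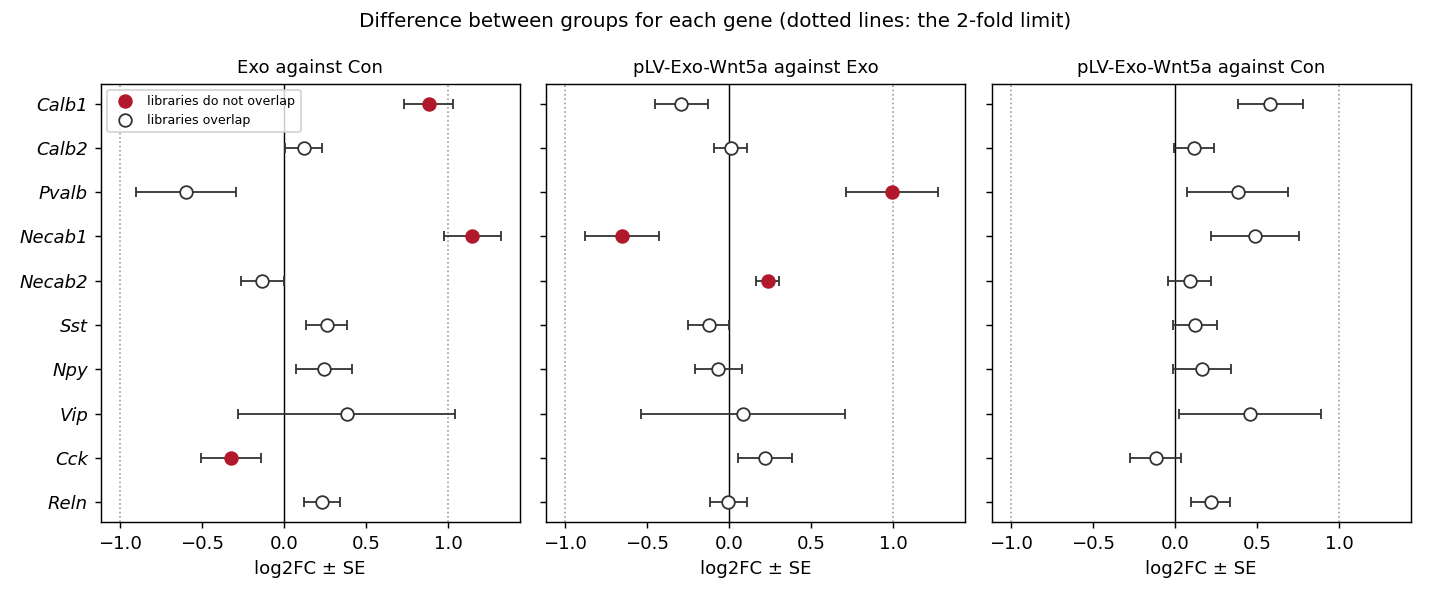
The log2FC of each gene (x axis, point ± SE) in the 3 pairwise comparisons; filled points mark genes without overlap of the libraries compared, and dotted lines mark the 2-fold limit. Necab1 was past that limit for Exo against Con (1.15), Pvalb reached 0.99 for pLV-Exo-Wnt5a against Exo, and no gene was past it for pLV-Exo-Wnt5a against Con.

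Within the groups, single libraries were low or high for many of the genes. pLV-Exo-Wnt5a replicate 3 was the lowest library of its group for 9 of the 10 genes and the highest for the remaining one, Pvalb. In the Exo group, replicate 1 was the lowest for 6 genes (Calb2, Necab2, Sst, Npy, Reln and Cck) and the highest for the other 4 (Calb1, Necab1, Pvalb and Vip). In the Con group, replicate 1 was the highest for 6 genes and the lowest for Vip and Reln.

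Across the 9 libraries, log2 CPM values of Calb2, Sst and Npy were alike, with a Pearson r of 0.947 for Calb2 and Sst and 0.948 for Calb2 and Npy. Calb1 and Necab1 formed another pair with an r of 0.947, whereas Calb1 and Calb2 had 0.549 and Necab1 and Necab2 had -0.370. Pvalb had negative values against Calb1 (-0.364), Necab1 (-0.542) and Sst (-0.530). All of these correlations are over 9 libraries that share their groups and depths, and are a description only.

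**Figure D3:**
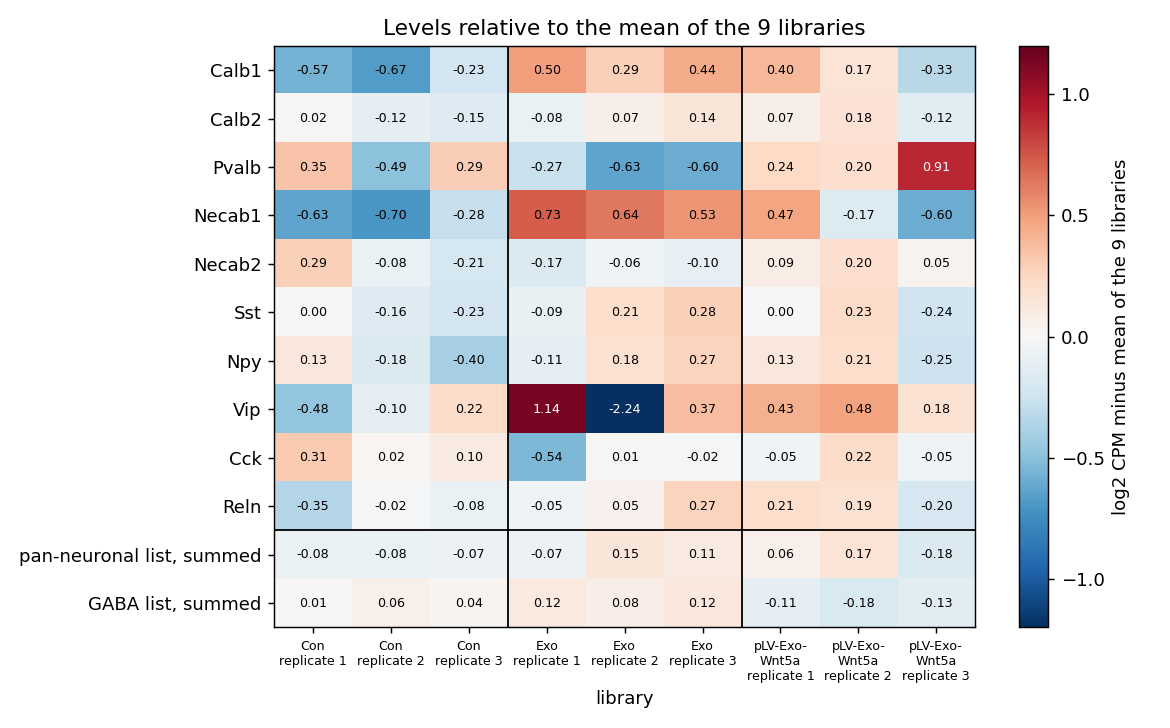
Heatmap of log2 CPM minus the mean of the 9 libraries (colour and printed value) for the 10 genes and, below the line, for the summed pan-neuronal and GABA lists; columns are libraries, and colours saturate at the ends of the scale. Calb2, Sst and Npy were all below their mean in pLV-Exo-Wnt5a replicate 3, and Calb1 and Necab1 were above theirs in all Exo libraries.

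The summed level of 11 pan-neuronal genes is given beside these levels. This sum was 3002, 3004 and 3027 CPM in Con, 3026, 3521 and 3428 CPM in Exo, and 3307, 3567 and 2809 CPM in pLV-Exo-Wnt5a, with Exo replicate 1 and pLV-Exo-Wnt5a replicate 3 lowest in their groups. The Pearson r with this sum, on the log2 scale over 9 libraries, was 0.910 for Sst, 0.883 for Calb2, 0.786 for Reln and 0.785 for Npy. It was 0.634 for Calb1 and 0.5798 for Necab1, between 0.125 and 0.194 for Necab2 and Cck, -0.288 for Vip and -0.515 for Pvalb. In Exo against Con, 10 of the 11 pan-neuronal genes had a positive log2FC (median 0.44) and none had Q under 0.05. In bulk libraries, fewer cells of a type and less RNA per cell cannot be told apart, and the part of this list in the levels of the 10 genes was not tested.

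Markers of other cells also differed between the groups. The 7 of 10 microglia and macrophage genes that could be tested all had a negative log2FC for Exo against Con (median -1.24, none with Q under 0.05), and the list summed to 14.9 to 16.8 CPM in Con, 7.70 to 8.76 CPM in Exo and 13.1 to 17.4 CPM in pLV-Exo-Wnt5a. In pLV-Exo-Wnt5a against Exo, the astrocyte filament gene Gfap rose (log2FC 0.86, SE 0.05, Q = 3.36e-05), the intermediate filament gene Vim rose (log2FC 0.62, SE 0.11, Q = 0.0389), and Dcx, a microtubule protein of young neurons, fell (log2FC -0.60, SE 0.08, Q = 0.0113). Over the lists that hold these genes, the log2FC was positive for 4 and negative for 6 of 10 astrocyte genes (median -0.16), positive for 5 and negative for 4 of 9 progenitor genes (median 0.03), and positive for 3 and negative for 8 of 11 pan-neuronal genes (median -0.04). The part of these cells in the levels of the 10 genes was not tested.

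The genes with the most similar pattern were looked up for the 8 members with a mean of at least 5 CPM, by the Pearson r of log2 CPM over the 9 libraries among 15457 other genes. Calb1 was most like Rnf227 (0.989) and Abhd17c (0.985). Necab1 was most like Lactb (0.976) and Cpe (0.966), the carboxypeptidase that trims neuropeptide precursors. Sst was most like the presynaptic gene Cplx1 (0.983) and the postsynaptic gene Nrgn (0.971). The nearest genes were Trim67 (0.982) and Plk5 (0.979) for Calb2, Cpne5 (0.974) and Cdk5r2 (0.972) for Npy, and Pdzd2 (0.973) and Shld3 (0.957) for Reln. For Necab2 they were Clba1 (0.964) and Irx5 (0.962), and for Cck they were Adra1d (0.961) and Asb2 (0.955). The limit of 5 CPM held for the members only. Irx5, Adra1d, Asb2 and Shld3 were low, with means of 0.391, 0.618, 0.397 and 0.924 CPM, and Plk5 had 1.06 CPM. With 9 points and this many genes, such values are a description of these libraries.

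Genes of the same systems that are not members were drawn from lists of GABA and glycine genes, interneuron transcription factors, other subtype genes, other peptides, peptide processing enzymes, receptors of the member peptides, the reelin pathway and other EF-hand proteins, 160 genes in all. For Exo against Con, 86 of 122 tested genes had a positive log2FC and 36 a negative one, with a median of 0.08 against 0.002 over all genes, and none had Q under 0.05 by edgeR. At the looser threshold 7 were higher and none lower, namely Gad2, Nr2f2, Cnr1, Scg2, Npy2r, Sstr3 and Rap1a, beside the 3.56% of all genes called higher and 0.909% called lower. For pLV-Exo-Wnt5a against Exo, 42 of 123 had a positive and 81 a negative log2FC (median -0.05), and 1 had Q under 0.05 beside 0.436% of all genes. At the looser threshold Htr3a, S100a11, S100a4 and Slc18a3 were higher and Erbb4 was lower, beside the 1.51% of all genes called higher and 1.98% called lower. Slc18a3 was near the floor, at 0.169 ± 0.0565 CPM in Exo and 0.673 ± 0.396 CPM in pLV-Exo-Wnt5a. For pLV-Exo-Wnt5a against Con, 74 of 123 had a positive log2FC (median 0.07), and none had Q under 0.05 by edgeR beside 0.0862% of all genes. At the looser threshold Scg2 and S100a4 were higher and none was lower, beside the 1.46% of all genes called higher and 0.696% called lower.

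Slc6a11, which encodes the GABA transporter GAT-3 of astrocytes, was that 1 gene. It was at 778 ± 26.3 CPM in Con, 829 ± 32.98 CPM in Exo and 580 ± 28.4 CPM in pLV-Exo-Wnt5a (SD, n = 3 each), and the pLV-Exo-Wnt5a libraries were below all others. Slc6a11 fell between Exo and pLV-Exo-Wnt5a (log2FC -0.50, SE 0.06, Q = 0.00363), and Q was under 0.05 in each of 12 alternative fits of that comparison. Between Con and pLV-Exo-Wnt5a its log2FC was -0.43 with Q = 0.141 by edgeR, and Q was under 0.05 in 4 of 12 alternatives. Slc6a11 is also an astrocyte gene. Beside it, in pLV-Exo-Wnt5a against Exo, stand the 6 of 10 astrocyte genes with a negative log2FC (median -0.16 over the 10) and Gfap, which rose.

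The GABA genes of neurons were present and did not pass the test. Gad1, which encodes the main GABA-synthesizing enzyme, was at 112 ± 13.3 CPM in Con, 142 ± 6.57 CPM in Exo and 139 ± 12.2 CPM in pLV-Exo-Wnt5a. Gad2, the second such enzyme, was at 5.93 ± 1.98, 9.99 ± 2.74 and 7.77 ± 0.375 CPM, and the vesicular GABA transporter Slc32a1 at 62.2 ± 2.96, 71.2 ± 4.51 and 68.1 ± 9.59 CPM in the same order. The vesicular glutamate transporter Slc17a7, a marker of excitatory cortical neurons, was at 103 ± 4.43, 113 ± 15.2 and 112 ± 15.4 CPM. Excitatory neurons can make Cck, Reln and Calb1 as well, and the part of each neuron class in their levels was not tested.

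The 2 receptors of member peptides past the looser threshold for Exo against Con were at low levels. Npy2r, a receptor of neuropeptide Y, was at 0.364 ± 0.168 CPM in Con, 0.982 ± 0.279 CPM in Exo and 0.715 ± 0.239 CPM in pLV-Exo-Wnt5a, and Sstr3, a somatostatin receptor, was at 0.627 ± 0.330, 1.29 ± 0.276 and 0.888 ± 0.417 CPM. Of the 15 receptor genes listed, 10 were tested, 4 with a positive and 6 with a negative log2FC for Exo against Con (median -0.005). Among other EF-hand genes, Calm2, a calmodulin gene, was at 216 ± 16.1, 301 ± 18.3 and 269 ± 34.3 CPM, with a log2FC of 0.47 (SE 0.08) and Q = 0.161 by edgeR for Exo against Con. Its value is uncertain if reads were shared with the other calmodulin genes, which encode the same protein. S100a4, a small EF-hand protein of glia and mesenchymal cells, was at 2.84 ± 1.20, 2.52 ± 0.101 and 5.06 ± 0.921 CPM, with a log2FC of 1.02 (SE 0.19) and Q = 0.0563 by edgeR for pLV-Exo-Wnt5a against Exo.

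**Figure D4:**
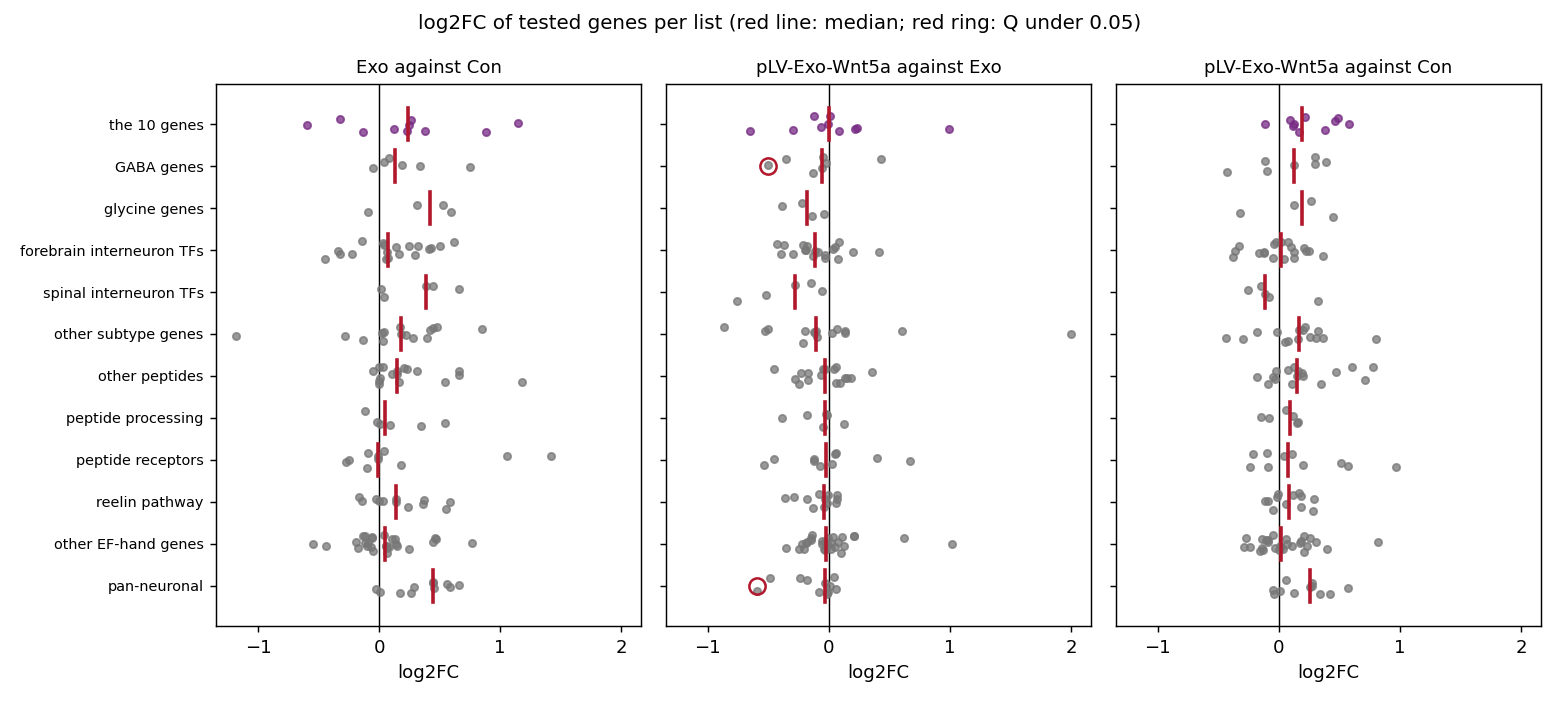
The log2FC (x axis) of each tested gene, for the 10 genes, the related lists and the pan-neuronal list (rows; other marker lists are not plotted), in the 3 pairwise comparisons; red lines are medians and red rings mark genes with Q under 0.05. The rings are Slc6a11 among the GABA genes (-0.50) and Dcx among the pan-neuronal genes (-0.60), both for pLV-Exo-Wnt5a against Exo, and none is in the row of the 10 genes.

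The spinal cord label went against the position markers. Of 26 Hox genes that mark hindbrain and spinal cord, 9 had a row in the table, all 9 were at 3 counts or fewer in every library, and their sum was at most 0.0778 CPM. All 10 genes of the forebrain position list passed the filter and were tested. Likewise, all 19 transcription factors of forebrain interneurons were tested, whereas 5 of 22 transcription factors of spinal interneurons were. The forebrain list summed to 701 to 861 CPM per library and the spinal list to 5.91 to 7.96 CPM over the 17 with a row. These sums are over different genes without regard to transcript length. The 10 genes are therefore described by symbol and not as markers of a spinal interneuron type.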

How the data were processed

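Whole-number counts per gene were deposited by the authors without normalization, for 9 libraries. The paper names HISAT2, the submitters' processing notes list Bowtie2, RSEM 1.3.1 and DESeq2 1.4.5, and the genome build and annotation are not given in the sources used here. Genes carry mouse symbols and NCBI numbers of mouse genes, whereas the labels say rat, so reads that do not match between the species could lower a count. Each column carried the library name of its sample.

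Genes were kept by filterByExpr on the 6 libraries compared (15070, 15132 and 15089 genes), scaled with TMM factors and compared in edgeR 4.0.16 (quasi-likelihood test, R 4.3.3). The SE came from the test statistic. CPM used TMM over all 9 libraries, and correlations between genes were taken on the log2 scale after adding a prior count of 2, over 15458 genes. Steps were tested on simulated data. Some results for single genes are left out. The members and the gene lists were chosen with earlier results of these data known. The text names all 10 members and, per related or marker list, genes with Q under 0.05, otherwise up to 4 genes with the smallest p, beside presence markers such as Gad1; related genes called at the looser threshold are also named. The alternatives were RLE normalization, DESeq2 1.42.0, other filters and thresholds, all 9 libraries in 1 fit, a block for the replicate number, unscaled CPM and leaving out each library.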

Additional observations from a re-analysis of the deposited data

How the results depend on the processing

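With 1 library left out, Vip between Exo and Con turned from 0.38 to -0.32 without Exo replicate 1, and Necab1 between pLV-Exo-Wnt5a and Exo went from -0.65 to -0.99 without pLV-Exo-Wnt5a replicate 1. Between Exo and Con, edgeR called 1 DEG, and the count was 674 at the looser threshold, 32 by DESeq2, 50 without the filter, 2 with all 9 libraries in 1 fit, and 0 to 138 with 1 library left out, the highest without Con replicate 3. It called 24 DEGs between pLV-Exo-Wnt5a and Exo, against 66 without the fold change limit, 528 at the looser threshold, 72 by DESeq2, 69 without the filter, and 11 to 27 with 1 library left out. Between pLV-Exo-Wnt5a and Con it called 10, against 326, 27 by DESeq2, 33 without the filter, and 1 to 12 with 1 library left out.

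Members called a DEG were 0 in each comparison. The looser threshold gave 2, 2 and 1. Between Exo and Con, DESeq2 gave 1 (Necab1), no filter gave 1 (Necab1), and leaving out 1 library gave 0 to 2. Calb1 and Necab1 had Q under 0.05 in 3 of 12 alternatives there (lowest Q 9.38e-05 and 4.45e-06, highest 0.571 and 0.546) and in none of the other comparisons. Related genes called were also 0. The looser threshold gave 7, 5 and 2. Leaving out 1 library gave 0 to 1 between Exo and Con, Cnr1 without Con replicate 3. It gave 0 to 2 between pLV-Exo-Wnt5a and Exo, S100a4 and Erbb4 without pLV-Exo-Wnt5a replicate 3. In that comparison S100a4 was the 1 called by DESeq2 and without the filter, and Slc6a11 the 1 called without the fold change limit. The cause of these differences was not tested.

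Libraries with the same replicate number deviated from their group means with a correlation of -0.201 to 0.0634. With 3 libraries per group, these values cannot exclude a shared batch, and the labels do not say what the number stands for. With the replicate block, the DEGs were 0, 28 and 20, and no member was called. Vip had the fewest counts, with 4 in 1 library.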

Other observations

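Calb1 and Necab1, the pair of members with the largest log2FC between Exo and Con, are near neighbours in the rat annotation GRCr8, with 1 protein-coding gene, Tmem64, between them. Their neighbours were looked up after these values were seen. Tmem64 had a log2FC of 0.49 (SE 0.21) between Exo and Con. On the Necab1 side, the nearest gene, C5h8orf88, had no row in the count table, and after it Pip4p2 had 0.52 (SE 0.18) and Otud6b had 0.22 (SE 0.16). On the Calb1 side, Decr1 had 0.01 (SE 0.10), Nbn had 0.57 (SE 0.29) and Osgin2 had 0.51 (SE 0.18). None of the 6 neighbours with a value had Q under 0.05 by edgeR in that comparison, and the log2FC of Calb1 and Necab1 was above that of each of them. Whether these values go with position was not tested.

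Among the glutamatergic markers, the smallest p between Exo and Con was that of Tbr1, a transcription factor of deep-layer cortical neurons. Tbr1 was at 62.6 ± 3.24 CPM in Con, 86.6 ± 8.38 CPM in Exo and 79.7 ± 12.9 CPM in pLV-Exo-Wnt5a (SD, n = 3 each), with a log2FC between Exo and Con of 0.46 (SE 0.09, Q = 0.265 by edgeR). Neurod1, a transcription factor of newborn excitatory neurons, was at 7.09 ± 1.88 CPM in Con, 13.3 ± 1.47 CPM in Exo and 11.1 ± 2.21 CPM in pLV-Exo-Wnt5a (SD, n = 3 each). Its log2FC between Exo and Con was 0.90 (SE 0.20, Q = 0.265 by edgeR), and 9 of 10 genes of that marker list had a positive log2FC (median 0.33).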
